A study of Mus musculus with 10 samples.

Results

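The genes described here are 8 noncoding genes of the mouse that carry small nucleolar RNAs (snoRNAs) within their transcripts: Gas5, Snhg1, Snhg3, Snhg5, Snhg6, Snhg8, Snhg12 and Snhg15. They were chosen by name, as rows whose gene symbol is one of these 8, a rule that uses no measured value. All 8 were found, as 8 of the 55573 rows of the count files, and all 8 passed the filter on low counts. None of the 8 differed between the EGF and saline libraries past an adjusted p of 0.05.

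A snoRNA host gene is transcribed by RNA polymerase II and spliced. The introns that are cut out are trimmed to snoRNAs, which guide chemical modification or cleavage of ribosomal RNA in the nucleolus: box C/D snoRNAs direct ribose methylation and box H/ACA snoRNAs direct pseudouridylation. The spliced exons of these hosts hold no long open reading frame. Several of the spliced RNAs, Gas5 above all, engage ribosomes and are removed by nonsense-mediated decay (NMD), so that their level is known to depend on translation as well as on transcription. Many hosts, like the genes of ribosomal proteins, begin transcription in a run of pyrimidines (a 5′ terminal oligopyrimidine tract, TOP), through which growth signals control translation.

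The study sequenced RNA of hematopoietic stem and progenitor cells (HSPCs), the cells that renew the blood, from bone marrow of C57BL/6 mice aged 16 weeks. All mice had received 500 cGy of total body radiation, and the cells were taken 6 weeks after it. One group, of 5 libraries, was from mice injected under the skin with EGF, or epidermal growth factor, a protein that activates the receptor EGFR, and the other, also of 5 libraries, from mice given saline the same way. No unirradiated group was analysed here. Whether the libraries of a group are from different mice is not in the labels. The p-values therefore speak of variation from library to library, part of which can be technical.

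The sequences at the start of the hosts are shown first, since the pyrimidine run at the first base is the feature for which these genes are known. The RefSeq table of start sites (GRCm38.p6) matched 7 of the 8 genes by symbol, all but Snhg6, with 8 start sites. Each line gives 30 bases, 5′ to 3′ on the gene's strand, from 10 bases before the start site. Capitals mark an unbroken run of at least 4 C or T that holds the start base.
Gas5, first start, chr1:161034591-161034620, plus strand: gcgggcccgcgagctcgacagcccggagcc
Gas5, second start, chr1:161035156-161035185, plus strand: ccatctcagCCTTTCggagctgtgcggcat
Snhg1, chr19:8723477-8723506, plus strand: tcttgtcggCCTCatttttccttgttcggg
Snhg8, chr3:123508317-123508346, minus strand: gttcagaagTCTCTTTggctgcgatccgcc
Snhg12, chr4:132308668-132308697, plus strand: ttctcagTCCTTTCTCgcttcatccgcggt
Snhg3, chr4:132353667-132353696, minus strand: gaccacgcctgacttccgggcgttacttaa
Snhg5, chr9:88522878-88522907, minus strand: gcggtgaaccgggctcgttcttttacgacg
Snhg15, chr11:6528741-6528770, minus strand: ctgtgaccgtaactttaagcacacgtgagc

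A run was present at 4 of the 8 start sites (50.0%), those of Snhg1, Snhg8, Snhg12 and the second Gas5 start. The same search found one at 14% of all 32851 start sites of the table and at 25 of 68 start sites of ribosomal protein genes (36.8%). The longest run, 9 bases, was at Snhg12, followed by 7 bases at Snhg8, 6 at Gas5 and 4 at Snhg1. These lengths include bases before the annotated start: counted from the start base, the run had 6 bases at both Snhg12 and Snhg8, 5 at Gas5 and 3 at Snhg1. A run is a description of the letters at an annotated start, and starts used in these cells were not measured.

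The snoRNAs themselves show the 2 classes. GENCODE M21 places 30 snoRNA entries inside the 8 genes on the same strand, with 10 in Gas5, 8 in Snhg1, 5 in Snhg12, 2 each in Snhg3 and Snhg5, and 1 each in Snhg6, Snhg8 and Snhg15. The 10 entries in Gas5 lie at 9 loci and the 5 in Snhg12 at 4, since Snord80 and Snora16a are each entered more than once. The shares below count entries. A C box (ATGATGA or GTGATGA) together with a D box (CTGA in the last 20 bases) was found on the snoRNA's own strand in 17 of the 30 (56.7%), against 21.1% of all 1507 snoRNA genes of the annotation. ACA directly before the last 3 bases was found in 8 of the 30 (26.7%, against 18.3%). Mir5117, a snoRNA entry of Gas5, is counted in both, and 6 of the 30 held neither. By these letters, with the box pair read first, Gas5, Snhg1, Snhg5 and Snhg6 carry C/D snoRNAs, Snhg3, Snhg8 and Snhg15 carry H/ACA snoRNAs, and Snhg12 carries both. The examples below are 2 snoRNAs that had counts in these libraries, Snord87 and Snora73b, and 2 that had none, Snord47 and Snora9. They are read from GRCm38, and capitals mark the C box and D box or the ACA.
Snord87 (in Snhg6, chr1:9942463-9942549, minus strand): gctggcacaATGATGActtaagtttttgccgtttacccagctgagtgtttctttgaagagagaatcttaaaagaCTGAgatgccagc
Snord47 (in Gas5, chr1:161038082-161038158, plus strand): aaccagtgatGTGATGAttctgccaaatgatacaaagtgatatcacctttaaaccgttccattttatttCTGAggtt
Snora73b (in Snhg3, chr4:132352322-132352526, minus strand): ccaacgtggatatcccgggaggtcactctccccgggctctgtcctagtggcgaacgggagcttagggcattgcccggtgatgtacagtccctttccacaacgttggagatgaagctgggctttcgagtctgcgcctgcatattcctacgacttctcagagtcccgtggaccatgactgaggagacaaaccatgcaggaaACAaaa
Snora9 (in Snhg15, chr11:6528033-6528165, minus strand): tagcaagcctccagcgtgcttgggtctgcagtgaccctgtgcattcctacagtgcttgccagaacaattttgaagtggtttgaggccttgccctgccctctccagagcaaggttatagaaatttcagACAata

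Libraries held 6805106 to 8370820 counts. The labelled cell type was checked with 10 HSPC markers, and all 10 were detected in every library, with a summed level of 1992 to 2375 CPM in saline (counts scaled to a common library total) and 2134 to 2585 in EGF. EGF replicate 5 stood apart from the other 9 libraries: 12731 genes had a count in it against 18734 to 20046 elsewhere, and Malat1, a nuclear noncoding RNA, took 1.62% of its counts against 0.336 to 0.444% in saline. The Malat1 share was also high in EGF replicates 3 and 4, at 0.908 and 0.905%. In EGF replicate 5, 81.3% of the 12874 genes tested lay outside the range of the other 9 libraries, so the fold changes of the host genes are given with and without it. Some markers of other cells differed too. The summed level of 6 plasma cell markers was 695 to 1522 CPM in saline. It was 469 to 967 in EGF replicates 1 to 4 and 159 in EGF replicate 5. Jchain held most of that sum in saline, at a mean of 897 CPM. Of these 6 markers, 5 had log2 fold changes below 0, while Mzb1 was at 0.71, or 0.25 without EGF replicate 5. Summed erythroid markers were at 7.78 to 20.8 CPM in saline and 8.81 to 19.35 in EGF. Megakaryocyte markers were at 110.5 to 177 and 110 to 193, and monocyte markers at 50.4 to 192.5 and 81.6 to 108. The sum of 8 neutrophil markers was 10.6 to 374 CPM in saline, 3.38 CPM at the lowest in EGF and highest in EGF replicate 5, at 505 CPM. The median log2 fold change of the neutrophil markers tested was 0.22 with EGF replicate 5, over 6 markers, and -1.66 without it, over 7. With that library 5 of the 6 were above 0, and S100a8 was at -1.58, or -2.08 without it. Of the 6 T and NK cell markers, 5 were at 0 in EGF replicate 5. The part of these differences in the values of the host genes was not tested. In RNA from a population, fewer cells of a type and less RNA per cell cannot be told apart.

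Seen as a group, the 8 host genes were at nearly the same level after EGF as after saline. Their summed level was 340 ± 20.5 CPM (SD, n = 5) in saline and 353 ± 28 CPM (SD, n = 5) in EGF, with library sums of 311 to 359 and 327 to 398. These CPM are scaled by the trimmed mean of M-values (TMM), which corrects each library for composition. Gas5 alone made up 60.5 to 66.1% of the sum in every library. Without Gas5 the sums were 129 ± 10.6 CPM in saline and 126 ± 5.97 CPM in EGF. With EGF replicate 5 left out, the EGF sums were 342 ± 14.3 CPM for the 8 hosts and 123 ± 3.35 CPM without Gas5 (SD, n = 4).

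None of the 8 passed an adjusted p of 0.05 in edgeR's quasi-likelihood test over 12874 genes, a test that called 1 gene in all (0.00777%). At an unadjusted p under 0.05 the test also held none of the 8, against 8.87% of all genes. DESeq2 called 0.435% of genes and limma-voom with quality weights 0.0932%, and neither called a host gene. DESeq2 gave no adjusted p for Snhg3 and Snhg6. On the TMM scale, EGF libraries lay wholly apart from saline libraries for 1 host, Snhg15, against 3.27% of all genes. They lay wholly above saline for this host (1.62% of all genes) and wholly below it for none of the 8 (1.65% of all genes). Without EGF replicate 5 the count was again 1 of 8 (5.01% of all genes), with none wholly below (2.36%). This host was again Snhg15, since leaving out a library cannot make separate groups overlap. The log2 fold change, EGF against saline, was above 0 for 3 of the 8 and for 48.5% of all genes, and its median was -0.10 over the hosts and -0.01 over all genes. Without EGF replicate 5 the median was -0.02 over the hosts, 4 of the 8 were above 0 against 50.0% of all genes, and no host was called against 0.0611% of all genes. DESeq2 without that library called 2.39% of all genes and no host.

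**Figure D1:**
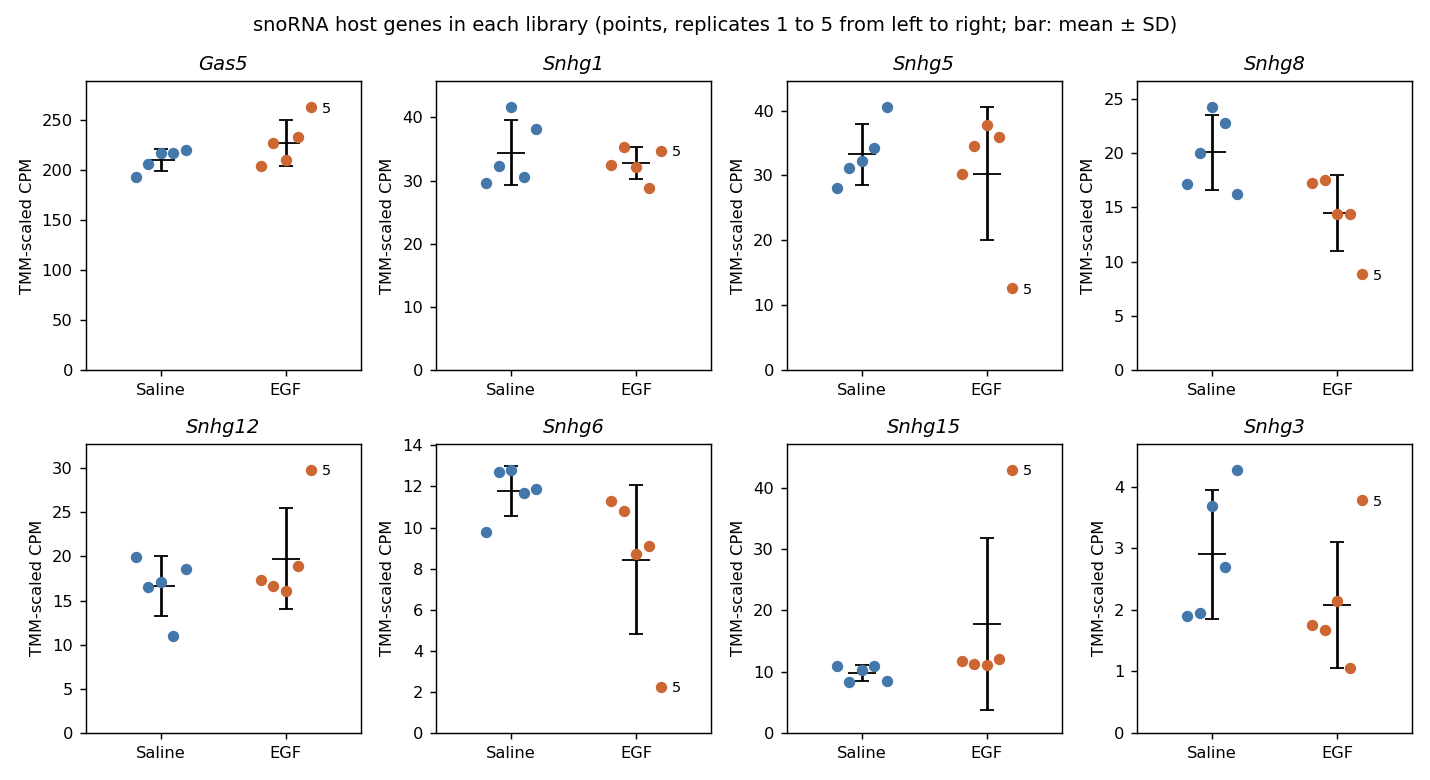
TMM-scaled CPM (vertical axes, each from 0) of the 8 host genes in each saline and EGF library, with points from left to right for replicates 1 to 5 and bars for the mean ± SD (n = 5). The point marked 5, EGF replicate 5, is the lowest for Snhg5, Snhg6 and Snhg8 and the highest for Gas5, Snhg12 and Snhg15.

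Levels between genes are compared per kilobase of annotated exon, on which scale long and short hosts can be set side by side. In saline, Gas5 was the highest at 56.0 ± 2.95 CPM per kb (SD, n = 5), followed by Snhg8 at 23.5 ± 4.11, Snhg5 at 19.2 ± 2.67, Snhg1 at 11.6 ± 1.74, Snhg6 at 10.3 ± 1.07, Snhg15 at 7.23 ± 0.98, Snhg12 at 6.92 ± 1.42 and Snhg3 at 2.94 ± 1.07. The ranges over the saline libraries overlapped between Snhg8 and Snhg5, between Snhg1 and Snhg6, and between Snhg15 and Snhg12. In EGF, Gas5 was at 60.5 ± 6.13, Snhg5 at 17.5 ± 5.92, Snhg8 at 17.0 ± 4.08 and Snhg15 at 13.1 ± 10.3 CPM per kb (SD, n = 5). The place of Snhg15 above Snhg1 (11) and Snhg6 (7.35) rests on EGF replicate 5. Without that library Snhg15 was at 8.51 ± 0.304, below Snhg1 at 10.9 ± 0.897 and Snhg6 at 8.7 ± 1.11 CPM per kb (SD, n = 4), with ranges that overlapped between Snhg15 and Snhg6. The order was then that of saline, except that Snhg5 (20) and Snhg8 (18.6) changed places, and their ranges overlapped in both groups. The exon length counts retained introns. These make up 20 of the 25 annotated Gas5 transcripts, 14 of the 18 of Snhg1, 3 of the 6 of Snhg5 and 1 of the 3 of Snhg8. Annotated exons cover the whole span of Snhg1 (2969 bases), Snhg8 (853) and Snhg12 (2402). The per-kilobase values of these genes depend on the annotation, and their counts can include unspliced RNA.

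Of the C/D hosts, Gas5 had the most counts. Gas5, a transcript first found in growth-arrested cells, lies on the plus strand of chr1:161034422-161038539 (GRCm38) with 3760 exonic bases and 10 snoRNA entries. Its level was 193, 206, 217, 217 and 220 CPM in saline replicates 1 to 5 and 204, 227, 210, 233 and 263 CPM in EGF replicates 1 to 5. The groups overlapped, although 3 EGF libraries were above every saline library. The means were 211 ± 11.1 CPM in saline and 227 ± 23.0 in EGF (SD, n = 5). The log2 fold change was 0.11 (SE 0.08, edgeR adjusted p = 0.656), with a 95% interval from -0.07 to 0.29, that is a fold of 0.951 to 1.23. Without EGF replicate 5 it was 0.05, with an interval from -0.08 to 0.18. Gas5 had 1472 to 1973 counts per library, and its coefficient of variation over saline libraries was 5.27%, against 2.47% from counting alone.

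Snhg1, known as the host of Snord22, lies on the plus strand of chr19:8723475-8726443 with 8 snoRNA entries. Its level was 29.6, 32.3, 41.6, 30.6 and 38.1 CPM in saline and 32.5, 35.4, 32.2, 28.9 and 34.7 CPM in EGF. The EGF libraries were within or just below the saline range. EGF against saline gave a log2 fold change of -0.07 (SE 0.13, edgeR adjusted p = 0.847), with a 95% interval from -0.36 to 0.21. Leaving out EGF replicate 5 gave -0.10 (edgeR adjusted p = 0.708), with an interval from -0.34 to 0.15. Snhg1 was one of the 2 hosts for which EGF replicate 5 lay within the range of the other 9 libraries, the other being Snhg3.

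Snhg5, the host of Snord50a and Snord50b, lies on the minus strand of chr9:88521050-88522929. Its level was 28, 31.1, 32.3, 34.3 and 40.5 CPM in saline and 30.3, 34.6, 37.8, 35.9 and 12.6 CPM in EGF. EGF replicates 1 to 4 were within the saline range and replicate 5 was far below it. Snhg5 had a log2 fold change of -0.14 (SE 0.25, edgeR adjusted p = 0.853, 95% interval -0.70 to 0.42) over all libraries and 0.06 (adjusted p = 0.825, interval -0.18 to 0.30) without EGF replicate 5.

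Snhg6, which carries Snord87, lies on the minus strand of chr1:9941959-9944118. Its level was 9.77, 12.7, 12.8, 11.7 and 11.9 CPM in saline and 11.3, 10.8, 8.70, 9.08 and 2.24 CPM in EGF. Replicate 5 held 16 counts against 61 to 108 in the other 9 libraries. EGF replicates 3, 4 and 5 were below every saline library. The log2 fold change was -0.48 (SE 0.36, edgeR adjusted p = 0.654), and -0.24 (adjusted p = 0.443) without EGF replicate 5, with an interval from -0.56 to 0.08. Its coefficient of variation over saline libraries, 10.4%, was no larger than counting gives, 10.4%.

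The H/ACA hosts include Snhg15, which had the largest log2 fold change of the 8, and Snhg3, which had the largest standard error. Snhg8, the host of Snora24, lies on the minus strand of chr3:123507552-123508404. Its level was 17.1, 20, 24.2, 22.8 and 16.2 CPM in saline and 17.2, 17.5, 14.4, 14.4 and 8.82 CPM in EGF. EGF replicates 3, 4 and 5 were below every saline library, and replicates 1 and 2 were within the saline range. The means were 20.1 ± 3.50 and 14.5 ± 3.48 CPM (SD, n = 5), a log2 fold change of -0.47 (SE 0.22, edgeR adjusted p = 0.552, 95% interval -0.95 to 0.01). Without EGF replicate 5 it was -0.34 (SE 0.15), with an interval from -0.66 to -0.02 and an adjusted p of 0.289. The interval of a single gene is not adjusted for the number of genes tested.

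Snhg15, the host of Snora9, lies on the minus strand of chr11:6525591-6528760. Its level was 11, 8.30, 10.2, 11 and 8.55 CPM in saline and 11.8, 11.3, 11.1, 12 and 42.9 CPM in EGF. On the TMM scale every EGF library was above every saline library, by a margin of 11.1 against 11 CPM at the closest pair. This order depends on the scaling. EGF replicate 2 held 88 of 8008639 counts, and saline replicate 1 held 87 of 7732068. Scaled by library total alone, the groups therefore overlapped. Leaving out EGF replicate 5, the highest value, could not undo the separation. Replicate 5 was 3.71 times the mean of the other EGF libraries, with 306 counts. The means were 9.83 ± 1.33 in saline and 17.8 ± 14 in EGF (SD, n = 5), a log2 fold change of 0.86 (SE 0.40, edgeR adjusted p = 0.552). Without EGF replicate 5 the EGF mean was 11.6 ± 0.413 CPM (SD, n = 4) and the log2 fold change 0.23 (SE 0.15, adjusted p = 0.445, 95% interval -0.08 to 0.55). The spread of these 4 libraries, 3.57%, was under the 10.5% that counting gives at this depth.

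Snhg3, which carries Snora73a and Snora73b, had the lowest level of the 8 and lies on the minus strand of chr4:132348014-132353686. Its exons overlap those of other genes, as given below, and how shared reads were counted is not known. It had 15 to 32 counts per library in saline and 9 to 27 in EGF. Its level was 1.90, 1.95, 3.68, 2.69 and 4.27 CPM in saline and 1.76, 1.67, 2.14, 1.06 and 3.78 CPM in EGF. Its log2 fold change was -0.48 (SE 0.43, edgeR adjusted p = 0.701, 95% interval -1.43 to 0.48), and -0.81 (SE 0.35, adjusted p = 0.291, interval -1.57 to -0.05) without EGF replicate 5. Its coefficient of variation over saline libraries was 36.4%, against 21% from counting alone.

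Snhg12, with snoRNAs of both classes, lies on the plus strand of chr4:132308623-132311024. Its level was 19.9, 16.5, 17.1, 11 and 18.6 CPM in saline and 17.3, 16.6, 16.1, 18.9 and 29.8 CPM in EGF. EGF replicates 1 to 4 were within the saline range and replicate 5 was above it. Its log2 fold change was 0.25 (SE 0.23, edgeR adjusted p = 0.709, 95% interval -0.26 to 0.75), and 0.05 (adjusted p = 0.907, interval -0.30 to 0.40) without EGF replicate 5.

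**Figure D2:**
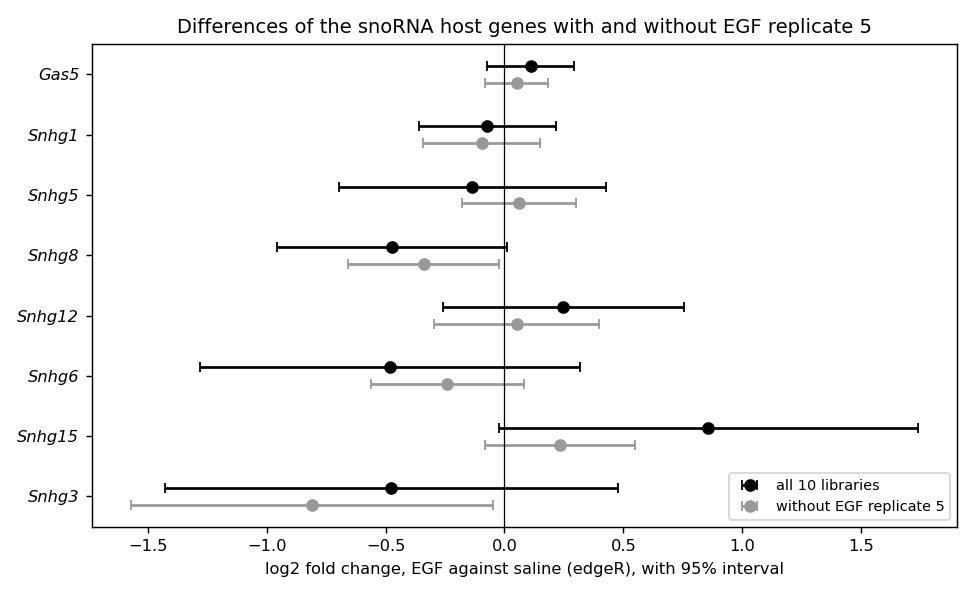
Log2 fold change, EGF against saline, of each host gene from edgeR (horizontal axis) with its 95% interval, over all 10 libraries (black) and without EGF replicate 5 (grey). The black intervals all include 0, and the grey interval leaves it out for Snhg8 and Snhg3, whose adjusted p values were 0.289 and 0.291.

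Without EGF replicate 5, Snhg3 and Snhg8 had unadjusted p values of 0.0393 and 0.0384 in edgeR's test across all genes, as did 15.8% of all genes under 0.05, and no host had an adjusted p under 0.289. EGF replicate 5 lay outside the range of the other 9 libraries for 6 of the 8 hosts, above it for Gas5, Snhg12 and Snhg15 and below it for Snhg5, Snhg6 and Snhg8, against 81.3% of all genes. Of all genes, 33.7% were above and 47.7% below the other 9.

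Pairs of hosts varied together in some cases and oppositely in others. Among the 28 pairs of hosts, the correlation of log2 CPM was above 0 in 15 pairs over 10 libraries and in 12 pairs over the 9 libraries without EGF replicate 5, with medians of 0.02 and -0.07. Points of such a correlation share library depth and composition, and with so few libraries the values are a description. The highest value over the 9 libraries was for Snhg6 and Snhg8 (0.80), followed by Snhg1 and Snhg3 (0.74) and Gas5 and Snhg5 (0.69). The pair of Snhg6 and Snhg8 kept a high value over all 10 (0.89), while Gas5 and Snhg5 went to -0.59. The 5 genes whose profile over 10 libraries was most like the mean profile of the 8 hosts, among 6915 genes of at least 20 CPM, were Deptor (r 0.93), Mogs (0.93), Fbl (0.92), Ddb1 (0.91) and Eif4a1 (0.89). Fbl encodes fibrillarin, the methyltransferase of C/D snoRNPs, and Deptor an inhibitor of mTOR. Taken as the highest of 6915 genes over 10 libraries, these r values are high in part by selection. Shared control of these genes and the hosts was not tested.

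The snoRNAs carried by the hosts were almost absent from the counts. Of the 30 snoRNA entries inside the 8 genes, the 27 that lie wholly inside an annotated exon of their host, retained introns included, had 0 counts in every library, and the 3 that do not had counts. The same held across the annotation: 1 of 135 snoRNA entries wholly inside an exon of another gene on their strand had a count (0.741%), against 245 of 1372 others (17.9%). So a 0 here goes with the overlap of the annotation, and does not show the absence of the snoRNA. How reads in more than one gene were counted is not given in the sources used here, and its part was not tested.

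Snord87, wholly in an intron of Snhg6, had 94, 126, 163, 180 and 183 counts in saline and 98, 155, 164, 108 and 15 in EGF. It thus had more counts than its spliced host in 9 of the 10 libraries, with a ratio of 0.938 to 2.69. Both were lowest in EGF replicate 5, where Snord87 had 15 counts and Snhg6 16. Snord87 had a log2 fold change of -0.45 (SE 0.48, edgeR adjusted p = 0.743), and -0.17 without EGF replicate 5. Snora73b, in an intron of Snhg3, had 16, 75, 84, 73 and 29 counts in saline and 95, 63, 89, 46 and 76 in EGF, a log2 fold change of 0.46 (SE 0.44, edgeR adjusted p = 0.718). Its ratio to Snhg3 ranged from 0.906 to 5 in saline and from 2.81 to 6.79 in EGF. Snora73a and Snora73b are identical at 198 of 205 positions (96.6%), so reads can be split between them. Snora73a also lies 77.6% inside annotated exons of Snhg3, and Snora73b lies outside them. Their counts, 646 for Snora73b and 8 for Snora73a in all, are therefore uncertain.

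**Figure D3:**
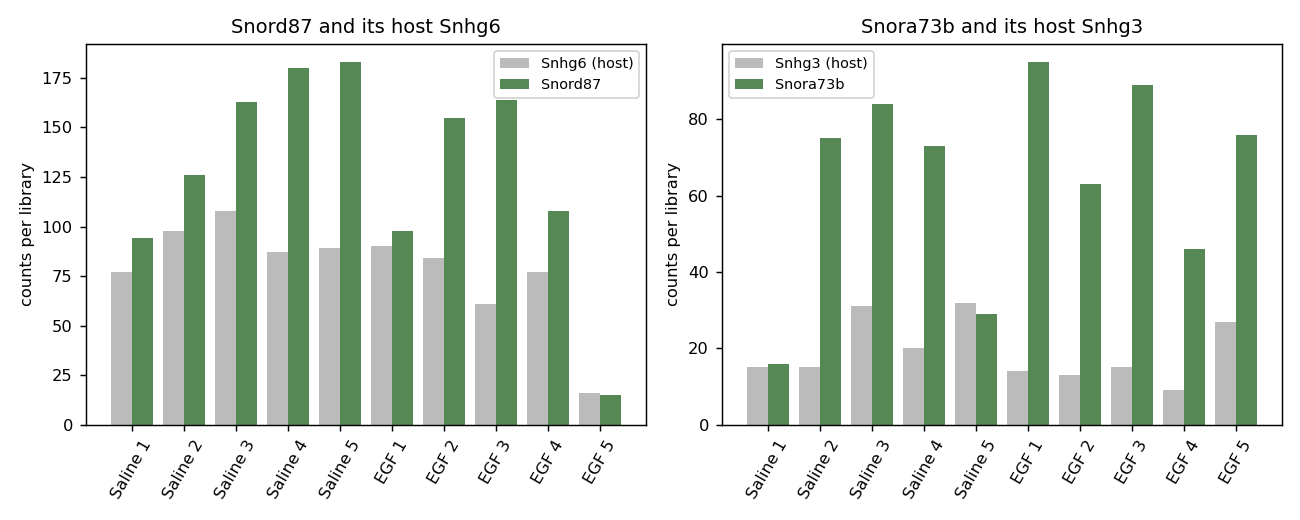
Counts per library (vertical axes from 0) of the host gene (grey) and of the snoRNA in its intron (green), for Snhg6 with Snord87 and for Snhg3 with Snora73b. In EGF replicate 5 both Snhg6 and Snord87 are low, at 16 and 15 counts, while Snhg3 and Snora73b are not.

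Genes that start or lie beside the hosts were compared because the strand setting of the counting is not given, and without it reads of a gene and its antisense partner cannot be told apart. Snhg3 shares 71.5% of its exonic bases with Gm17300 on the opposite strand, which had 0 to 3 counts per library, and 13.7% with Rcc1, which encodes the exchange factor of Ran, on its own strand. Rcc1 was at 49.8 to 68.1 CPM in saline, 41.1 to 54.7 in EGF replicates 1 to 4 and 15.3 in EGF replicate 5. Its log2 fold change was -0.51 (SE 0.28, edgeR adjusted p = 0.565), and -0.30 without EGF replicate 5, beside -0.48 and -0.81 for Snhg3. Snhg6 shares 11.1% of its exonic bases with Mcmdc2 on the opposite strand, which had 0 to 6 counts. Zbtb37, whose start is 427 bases from that of Gas5 on the opposite strand, shares no exonic base with it. Its level was 25.2 to 32.5 CPM in saline, 28.7 to 36.5 in EGF replicates 1 to 4 and 56.2 in EGF replicate 5, a log2 fold change of 0.40 (SE 0.18, edgeR adjusted p = 0.552). Slc3a2, the heavy chain of an amino acid transporter, starts 106 bases from Snhg1 on the opposite strand and had a log2 fold change of -0.32 (SE 0.14, adjusted p = 0.552), beside -0.07 for Snhg1.

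Genes that share the hosts' biology were read from the same fit, and none passed an adjusted p of 0.05 in any list. Of 16 rows of other noncoding snoRNA hosts, 8 had enough counts to test, with 7 of the 8 log2 fold changes above 0 and a median of 0.12, against -0.01 over all genes. Snhg20 was at 2.42 to 8.70 CPM in the other 9 libraries and 26.5 in EGF replicate 5. Epb41l4aos, at 6.30 to 11.2 and 22.8, and Zfas1, at 15 to 22.3 and 26.2, were also high there, as Snhg15 was. EGF replicate 5 was the lowest library for Snhg17 (18.4 CPM), 2410006H16Rik (33.5), Snhg16 (7.14), Snhg4 (5.04) and Dancr. Dancr had 0 counts there and 16 to 75 elsewhere, and Snhg16 had a log2 fold change of 0.30 (SE 0.24), or 0.42 without EGF replicate 5. Of the coding hosts, ribosomal protein and other translation genes whose introns also hold snoRNAs, 25 of 31 were below 0 and 6 above, or 2 above without EGF replicate 5, with a median of -0.16, and -0.17 without EGF replicate 5.

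Among 78 cytosolic ribosomal protein genes, 73 were below 0 and 5 above, or 1 above without EGF replicate 5, with a median of -0.24, and -0.20 without EGF replicate 5. Over all genes 48.5% were above 0, or 50.0% without that library. Most of the coding hosts are ribosomal protein genes that are also in this list, so the counts for these lists are not separate observations. Rps2 was at 604 ± 27.3 CPM in saline and 469 ± 84.5 in EGF (SD, n = 5), a log2 fold change of -0.37 (SE 0.12, edgeR adjusted p = 0.552). The share of ribosomal protein genes in all counts was 3.97 to 4.36% in saline and 3.83, 4.03, 3.56, 3.36 and 3.24% in EGF replicates 1 to 5, lowest in the 3 libraries with the most Malat1. The part of that in the list's median was not tested. The 8 noncoding hosts had their median nearer to 0 than this list, and a difference between the lists was not tested.

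The proteins that bind the snoRNAs showed no call either. Of 4 box C/D proteins 3 were below 0, with a median of -0.08. Fbl was at -0.11 (SE 0.07), while Snu13, which binds the box C/D turn, was at 2.80 CPM in EGF replicate 5 against 41.8 to 56.1 elsewhere. All 4 box H/ACA proteins were below 0, with a median of -0.27, and -0.17 without EGF replicate 5, Nhp2 being at -0.27 (SE 0.10, edgeR adjusted p = 0.552). Of 10 assembly factors 6 were above 0, with a median of 0.02, and 2 of 10 without EGF replicate 5, with a median of -0.09.

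The factors that remove spliced hosts also did not pass the test. Of 10 NMD factors 8 were above 0, with a median of 0.12. That count became 5 of 10 without EGF replicate 5, with a median of 0.01. Smg6, the endonuclease of NMD, was at 132 ± 7.99 CPM in saline and 179 ± 38.3 in EGF (SD, n = 5), a log2 fold change of 0.44 (SE 0.13, adjusted p = 0.552), and 0.31 without EGF replicate 5. Upf2 and Upf3b, which join the exon junction complex to the decay machinery, had log2 fold changes of 0.70 and 0.83 that became 0.19 and 0.18 without that library. Of 7 NMD-sensitive mRNAs 4 were above 0 and 3 below, with a median of 0.10, and 2.11e-05 without EGF replicate 5. Trib3 was at -0.68 and Gadd45b at -0.53, and at -0.37 and -0.26 without that library. Ddit3 was at 1.30 and Atf3 at 0.78, and at 0.37 and 0.52 without EGF replicate 5, in edgeR with adjusted p values of 0.331 and 0.265. Of 12 genes of mTOR and TOP control 6 were above 0, and 5 without EGF replicate 5. The exon junction complex had 3 of 5 above 0 and decapping 3 of 6, which became 1 of 5 (median -0.06) and 1 of 6 (median -0.03) without EGF replicate 5.

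**Figure D4:**
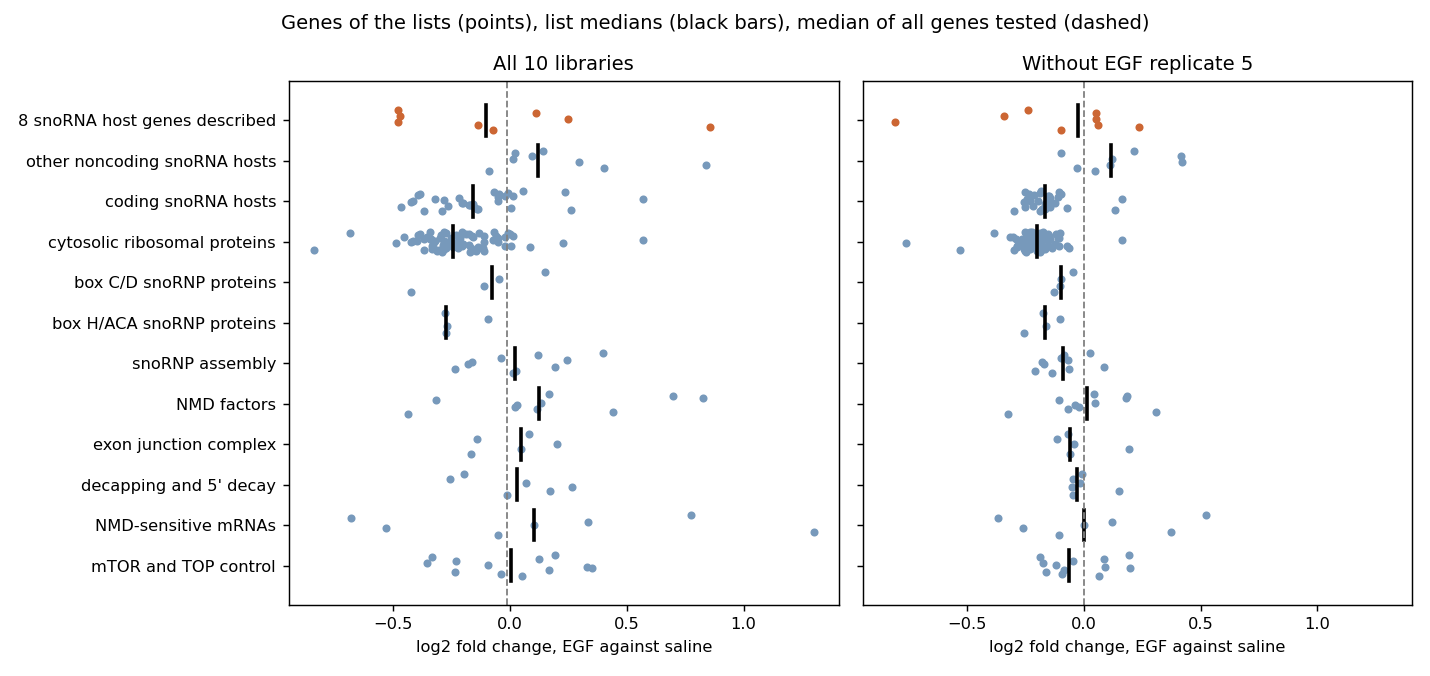
Log2 fold change, EGF against saline, of each tested gene (points) in the 8 host genes (orange) and in lists of related genes (blue), with list medians (black bars) and the median of all genes tested (dashed line), over all libraries on the left and without EGF replicate 5 on the right. Ribosomal protein genes and coding hosts, lists that share most of the coding hosts, lie mostly below 0 in both panels, and the 8 hosts lie on both sides of it.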

How the data were processed

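The authors deposited raw read counts per gene for each of 10 libraries, 5 saline and 5 EGF, with no normalization. RNA was isolated on RNeasy Micro columns, per the labels' protocols, depleted of ribosomal RNA and made into libraries with a Clontech kit and PCR. Sequencing was on a NextSeq500, per the series' design text. Per the submitters' processing notes, bcl2fastq 2.17 and STAR were used, with GRCm38 and mm10 as builds. The counting tool, strand setting and annotation release were not given in the sources used here. Of 55573 rows, 55480 carried a GENCODE M21 identifier, and 27 symbols turned into dates were restored by identifier. PCR copies are counted as reads, so counting errors are lower bounds.

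Counts were fitted in R 4.3.3 with edgeR 4.0.16 (TMM, filterByExpr at a minimum count of 10, quasi-likelihood F test, Benjamini-Hochberg over all genes tested), without covariates, after a check on simulated data. Standard errors come from the F statistic. Alternatives were DESeq2 1.42.0, limma 3.58.1 voom with quality weights, other scaling and filters, a replicate block, and each library left out in turn. Leaving out EGF replicates 3 and 4, and DESeq2 without EGF replicate 5, were added after seeing the data. Correlations of log2 CPM used a prior count of 2. The main fit did not pair libraries by number. The deviations of same-numbered libraries had correlations between -0.08 and 0.02, a check that cannot exclude a shared batch, as given below. No library pair looked like one library sequenced again: the chi-square per degree of freedom was 5.48 or more. This measure cannot exclude separate libraries from the same RNA or mouse.

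The text names all 8 hosts, genes whose exons overlap a host or that start within 1000 bases of its start, up to 3 genes of each list with the smallest p, and the 5 genes most like the hosts. Dancr, Trib3, Gadd45b, Mzb1, Snhg17, 2410006H16Rik, Snhg4 and Zfas1 were named after their values were seen. Members and lists were chosen with earlier results of these data known.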

Additional observations from a re-analysis of the deposited data

Results flagged for a closer look

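In 20 groups of 5 libraries (the 8 hosts and 2 snoRNAs with counts, each in saline and in EGF), 3 values stood far from the other 4 of their group. A rate of about 1 in 20 holds for independent groups of normal values, and these groups share libraries. All 3 values are EGF replicate 5, which lay outside the other 9 libraries for 81.3% of the 12874 genes tested. The share of all genes with such a gap is not given, so the flags are not read as particular to the hosts. In EGF replicate 5, Snhg6 was at 2.24 CPM, with a gap of 0.714 of the group's range. Snhg12 was at 29.8 CPM (0.799 of the range) and Snhg15 at 42.9 CPM (0.972 of the range). This library also had the fewest detected genes, 12731, and the largest Malat1 share, 1.62%. Their part in these values was not tested.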

How the results depend on the processing

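No host was called under any of the 19 alternatives to the edgeR analysis of all 10 libraries. The lowest adjusted p of a host was 0.249, in DESeq2 without EGF replicate 5. The number of genes called over all genes moved from 1 to 0 with library size scaling, 56 with DESeq2, 12 with limma-voom, 0 without EGF replicates 3 and 4 and 313 with DESeq2 without EGF replicate 5. Leaving out 1 library at a time gave 0 to 8 genes, the 8 without EGF replicate 5. The log2 fold change of 2 hosts turned in sign: with 1 library left out, Snhg1 ranged from -0.123 to 0.00546 (without saline replicate 3) and Snhg5 from -0.228 to 0.0599 (without EGF replicate 5), and Snhg5 was at 0.0616 in DESeq2 without EGF replicate 5. The cause was not tested. Snhg15 ranged from 0.23 to 1.16 on the log2 scale and Snhg8 from -0.55 to -0.30.

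With the replicate block, 0 genes and 0 hosts were called and the hosts' median was -0.13. The correlations of same-numbered libraries' deviations were between -0.08 and 0.02. The deviations are from group means that include EGF replicate 5, so this check cannot exclude a batch shared by same-numbered libraries. Snhg3 had the fewest counts of the 8 hosts, 9 to 32 per library.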
